A study of Mus musculus with 6 samples.

Results

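This report describes 34 mouse genes of the interferon response and of antigen presentation in the testis of Phf13 knockout and wild-type mice. A list of 36 genes was chosen by function, and a gene entered when the array held at least 1 probe set whose platform annotation gave exactly that symbol. Isg15 and Ifi44 had no such probe set, which left 34 genes with 70 probe sets, out of 18193 genes and 45037 probe sets in the table. The genes were sorted by role into 5 sensors of viral RNA with their adaptor, 7 signal transducers, 14 induced genes and 8 genes of antigen presentation.

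Total RNA of whole testis from mice aged 5 weeks was hybridised to 6 Affymetrix arrays, 3 from Phf13 knockout and 3 from wild-type mice. The labels give no other allele, agent or treatment, and none of the sources used here describes how the knockout was made. They number the arrays as replicates but do not tie them to separate animals; the p-values therefore reflect the spread among these arrays, part of which may be technical. Values are the deposited log2 values, and a difference is always knockout minus wild type.

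Cells sense foreign RNA through the helicases encoded by Ddx58 (RIG-I) and Ifih1 (MDA5), which act through the mitochondrial adaptor MAVS, and through the endosomal receptor TLR3. These switch on type I interferon through factors such as IRF3 and IRF7, and secreted interferon signals through its receptor (Ifnar1, Ifnar2) to a complex that holds STAT2 and IRF9. That complex binds a DNA element in front of many antiviral genes. Class I molecules, which need B2m and the peptide transporter Tap1 and Tap2, are under the control of Nlrc5, and class II molecules, which need Cd74, are under the control of Ciita. Germ cells of the testis are known for little display of these molecules, and the interstitium holds macrophages.

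The element bound by the STAT2 and IRF9 complex holds the letters GAAANNGAA, which were searched on both strands in the 250 bases before each start site in RefSeq's promoter table (build GRCm38.p6). Of the 36 listed genes, 28 were in that table and 9 of them held this core, 32.1%, against 8.18% of all 27025 genes in the table. Besides Isg15 these were Ifit1, Ifit3, Rsad2, Bst2, Stat2, Ifih1, Adar and B2m. The 100 bases around the matches are shown for those 8, because they are the measured genes with the core letters in front of them. They are printed 5′ to 3′ on the strand of the gene, with the matches in capitals; matches overlap in Bst2 and Ifit1.
Ifit1, chr19:34640747-34640846, + strand: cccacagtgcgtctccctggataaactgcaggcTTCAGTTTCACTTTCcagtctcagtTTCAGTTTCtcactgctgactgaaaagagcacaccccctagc
Ifit3, chr19:34583355-34583454, + strand: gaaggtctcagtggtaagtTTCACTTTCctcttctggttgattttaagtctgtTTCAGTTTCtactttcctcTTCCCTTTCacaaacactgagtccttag
Rsad2, chr12:26456518-26456617, - strand: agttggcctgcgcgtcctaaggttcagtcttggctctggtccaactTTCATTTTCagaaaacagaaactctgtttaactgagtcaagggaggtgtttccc
Bst2, chr8:71537546-71537645, - strand: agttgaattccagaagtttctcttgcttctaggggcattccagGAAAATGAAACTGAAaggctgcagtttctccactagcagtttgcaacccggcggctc
Stat2, chr10:128270248-128270347, + strand: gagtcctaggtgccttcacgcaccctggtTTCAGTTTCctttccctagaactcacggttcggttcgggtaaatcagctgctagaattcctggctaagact
Ifih1, chr2:62646314-62646413, - strand: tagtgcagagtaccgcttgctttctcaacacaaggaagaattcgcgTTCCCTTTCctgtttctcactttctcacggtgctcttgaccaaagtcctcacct
Adar, chr3:89730468-89730567, + strand: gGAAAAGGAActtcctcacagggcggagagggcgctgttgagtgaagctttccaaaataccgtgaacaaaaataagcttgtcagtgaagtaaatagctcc
B2m, chr2:122147502-122147601, + strand: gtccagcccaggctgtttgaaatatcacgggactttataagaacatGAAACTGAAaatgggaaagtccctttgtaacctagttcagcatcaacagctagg
The 3 matches of Ifit1 began between 109 and 84 bases before its start, and that of B2m 139 bases before. A match is a description of these letters and not evidence of binding. The differences of the 8 genes, given below with the values of each array, ran from -0.01 for Stat2 and Ifit3 to 0.42 for B2m. Another core, TTCNNNGAA, is that of the elements bound by STAT factors after interferon gamma. It stood before 6 of the 28 genes (21.4%, against 8.13% of all genes), Bst2, Eif2ak2, Ifit2, Ifnar2, Irf1 and Samhd1. CCAAT, a common promoter motif that is also part of the module in front of class II genes, stood before 10 of 28 (35.7%, against 37.5%), among them H2-Aa and B2m.

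None of the 34 genes passed the test. Of 70 probe sets, 0 had a limma adjusted p under 0.05, where 0.0999% of all 45037 probe sets did, 0.0555% as higher and 0.0444% as lower. The smallest adjusted p among the 70 was 0.154, for a probe set of Ifi35. Without a correction for multiple testing, limma's p was under 0.05 for 6 higher and 5 lower of the 70, in all 15.7%, against 15.1% of all probe sets, 6.81% higher and 8.31% lower. The knockout arrays all lay above the wild-type arrays in 8 of the 70 and all below them in 9, in all 24.3%, against 19.3% of all probe sets, 8.62% above and 10.7% below. By the brightest probe set, limma's unadjusted p was under 0.05 for 2 of the 34 genes on the higher and 3 on the lower side (14.7% in all), where it was so for 17.3% of all genes, 8.58% higher and 8.72% lower. In 2 of the 34 genes the knockout arrays all lay above and in 4 all below (17.6% in all), where 23.5% of all genes did so, 9.92% above and 13.5% below. These shares lie near those of the whole array. With arrays weighted by their fit, 8 of the 70 probe sets and 3186 of all 45037 probe sets passed. For Phf13 itself the arrays read 6.71, 6.60 and 6.55 in knockout, against 9.55, 9.47 and 9.56 in wild type (limma adjusted p = 7.7e-06).

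The differences of the 34 genes were small. They ran from -0.48 for Dhx58 to 0.58 for Xaf1, with 22 above 0 and 12 below and a median of 0.08, beside a median of 0.01 over all 18193 genes. Without knockout 3 the median of the 34 was 0.012. For 32 of the 34 the 95% interval from the limma fit lay inside -1 to 1 on the log2 scale. Only those of Ifi35 and Xaf1 passed 1, with upper ends of 1.01 and 1.09. In 20 genes the interval lay inside -0.5 to 0.5.

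**Figure D1:**
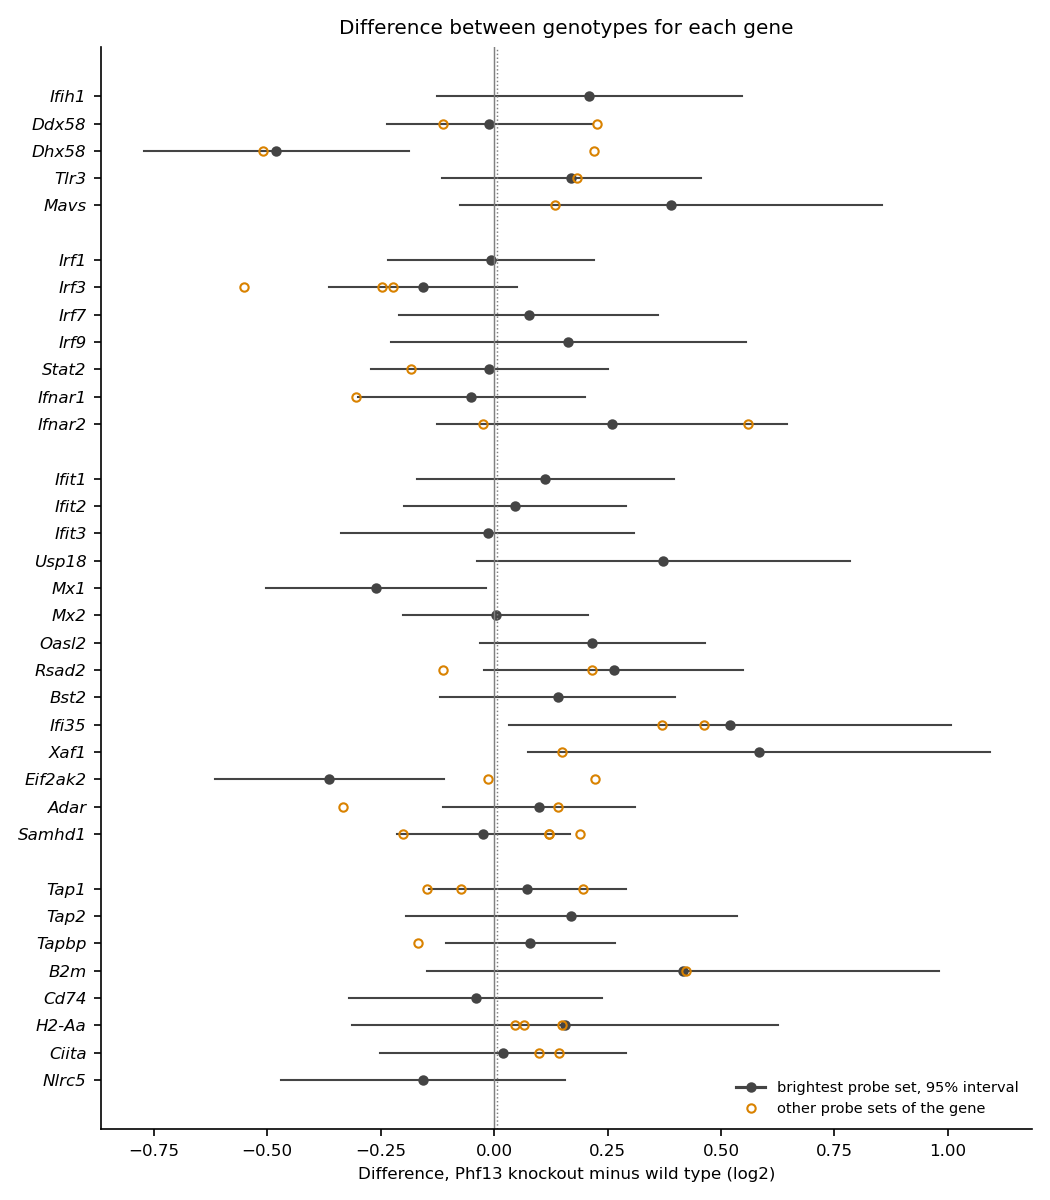
Difference between Phf13 knockout and wild-type testis (log2, horizontal axis) for the 34 genes, grouped by role from sensors at the top to antigen presentation at the bottom. Filled points are the brightest probe set of a gene with its 95% interval from the limma fit, open points are its other probe sets, the solid line marks 0 and the dotted line the median of all genes, 0.01. The intervals of 32 genes lie inside -1 to 1.

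Several array properties touch these results. Knockout 1, wild type 1 and wild type 2 had high 18S ribosomal control values, from 12.03 to 12.67, and knockout 2, knockout 3 and wild type 3 low ones, from 9.69 to 10.71. The actin 3′ minus 5′ control value, a sign of RNA quality, split the arrays the same way, at 0.75 to 0.89 in the first set and 0.56 to 0.59 in the second, and its part in the results was not tested. The codes in the array titles form 3 runs: wild type 1 alone, wild type 2 with knockout 1, and wild type 3 with knockout 2 and knockout 3. The low 18S set is the same arrays as the last run, so the 18S split cannot be told apart from these runs. The labels do not say what the codes stand for. Differences inside each 18S set are given where they bear on a gene. The mean of 14 macrophage and monocyte markers was 5.66, 6.24 and 6.43 on knockout arrays 1, 2 and 3, against 5.83, 5.75 and 5.97 on the wild-type arrays. In whole tissue, fewer cells of a type and less RNA per cell cannot be told apart. Spermatid markers averaged 13.23 in knockout and 13.22 in wild type, close to the array maxima of 13.98 to 14.01, which goes with the label testis. The mean of 6 spermatocyte markers was 11.08 in knockout and 11.18 in wild type, with all knockout arrays below all wild-type arrays. Of the 6, 3 were above 0 and 3 below. Ccna1 at -0.28 and Piwil1 at -0.26 had an unadjusted limma p under 0.05, 33.3% of the 6 against 17.3% of all genes. The median probe set stood at 5.26 and the lower quartile at 3.70. No background level is given, so a low value is not a measure of absence, and values of different probe sets are not compared as levels. Of the 70 probe sets 12 are of a type whose probes may also match other transcripts, among them the brightest of Mavs, Tlr3, Irf3, Ifi35 and H2-Aa.

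Among the sensors, Dhx58 was the one whose groups did not overlap. Dhx58 encodes LGP2, a helicase without the signalling domain of its relatives that tunes their output. Its brightest probe set read 8.31, 8.11 and 7.89 on the knockout arrays, against 8.62, 8.70 and 8.43 on the wild-type arrays. All knockout arrays lay below all wild-type arrays, with a difference of -0.48 (95% interval -0.77 to -0.19) and a limma adjusted p of 0.208. Inside the sets of arrays the difference was -0.35 with high 18S and -0.43 with low 18S. The other probe sets of Dhx58 split: 1 differed by -0.51, with overlap, and the dimmest by 0.22, with all knockout arrays above all wild-type arrays.

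By the brightest probe set, the other sensors overlapped between genotypes. Ifih1, whose product MDA5 binds long double-stranded RNA, read 5.10, 5.20 and 5.35 in knockout, against 4.68, 5.19 and 5.15 in wild type. Wild type 1 was the low array behind its difference of 0.21. Ddx58, whose product RIG-I binds short RNA with a 5′ triphosphate, read 5.51, 5.59 and 5.64 in knockout, against 5.45, 5.60 and 5.72 in wild type. Its difference was -0.01 (95% interval -0.24 to 0.22), with -0.11 and 0.23 for its dimmer probe sets, the second of which had all knockout arrays above all wild-type arrays. Tlr3, the endosomal receptor for double-stranded RNA, read 4.01, 4.15 and 4.28 in knockout, against 3.99, 4.17 and 3.77 in wild type, a difference of 0.17. Mavs, the adaptor that the helicases share, read 6.18, 6.65 and 6.84 in knockout, against 5.82, 6.22 and 6.46 in wild type. Its knockout 1 lay below 2 wild-type arrays, so the groups overlapped despite a difference of 0.39 (95% interval -0.07 to 0.85), and its other probe set differed by 0.13. Over the 5 genes, 3 were above 0 and 2 below, with a median of 0.17.

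The transducers showed no common shift. Of 7 genes, 3 were above 0 and 4 below, the median was -0.01, and 0 had an unadjusted p under 0.05 in limma by the brightest probe set. Irf3, the factor that the sensors activate first, was the one transducer whose groups did not overlap by the brightest probe set. It read 8.72, 8.80 and 8.78 in knockout, against 9.04, 8.86 and 8.87 in wild type, a difference of -0.16. All 4 probe sets of Irf3 were below 0, at -0.16, -0.55, -0.22 and -0.25 in order of brightness. In all 4 the knockout arrays lay below the wild-type arrays, as in 10.7% of all probe sets. Of the 4, 2 had an unadjusted p under 0.05 in limma, where 15.1% of all probe sets did. The second in order of brightness read 7.58, 7.30 and 7.49 in knockout and 8.10, 8.13 and 7.79 in wild type, with an adjusted p of 0.179 in limma. Without wild type 3 that probe set alone among the 70 passed, with a difference of -0.66 and a limma adjusted p of 0.027. In that fit 1176 of all 45037 probe sets passed.

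Irf7, the factor that amplifies interferon production, read 4.85, 4.88 and 5.14 in knockout, against 4.99, 4.67 and 4.98 in wild type. Irf1, a factor induced by interferon gamma, read 6.59, 6.61 and 6.60 in knockout, against 6.50, 6.54 and 6.78 in wild type, a difference of -0.01. For both genes the groups overlapped. Of the complex that carries the interferon signal to DNA, Stat2 read 4.19, 3.79 and 3.96 in knockout, against 4.04, 3.96 and 3.97 in wild type, and Irf9 read 4.89, 4.93 and 5.42 in knockout, against 4.64, 5.06 and 5.05 in wild type. Their differences were -0.01 for Stat2, with the wider spread in knockout, and 0.16 for Irf9, where knockout 3 was the only array above 5.06. The second probe set of Stat2 read 3.50, 3.48 and 3.48 in knockout, against 3.86, 3.58 and 3.57 in wild type, a difference of -0.18 without overlap. The receptor chain Ifnar1 read 6.05, 6.15 and 6.15 in knockout, against 6.18, 6.34 and 5.98 in wild type, a difference of -0.05, and its second probe set differed by -0.30, with overlap. Its partner Ifnar2 read 6.41, 6.98 and 6.81 in knockout, against 6.26, 6.44 and 6.72 in wild type, a difference of 0.26 in which knockout 1 lay below 2 wild-type arrays. The 3 probe sets of Ifnar2 disagreed, at 0.26, 0.56 and -0.02.

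**Figure D2:**
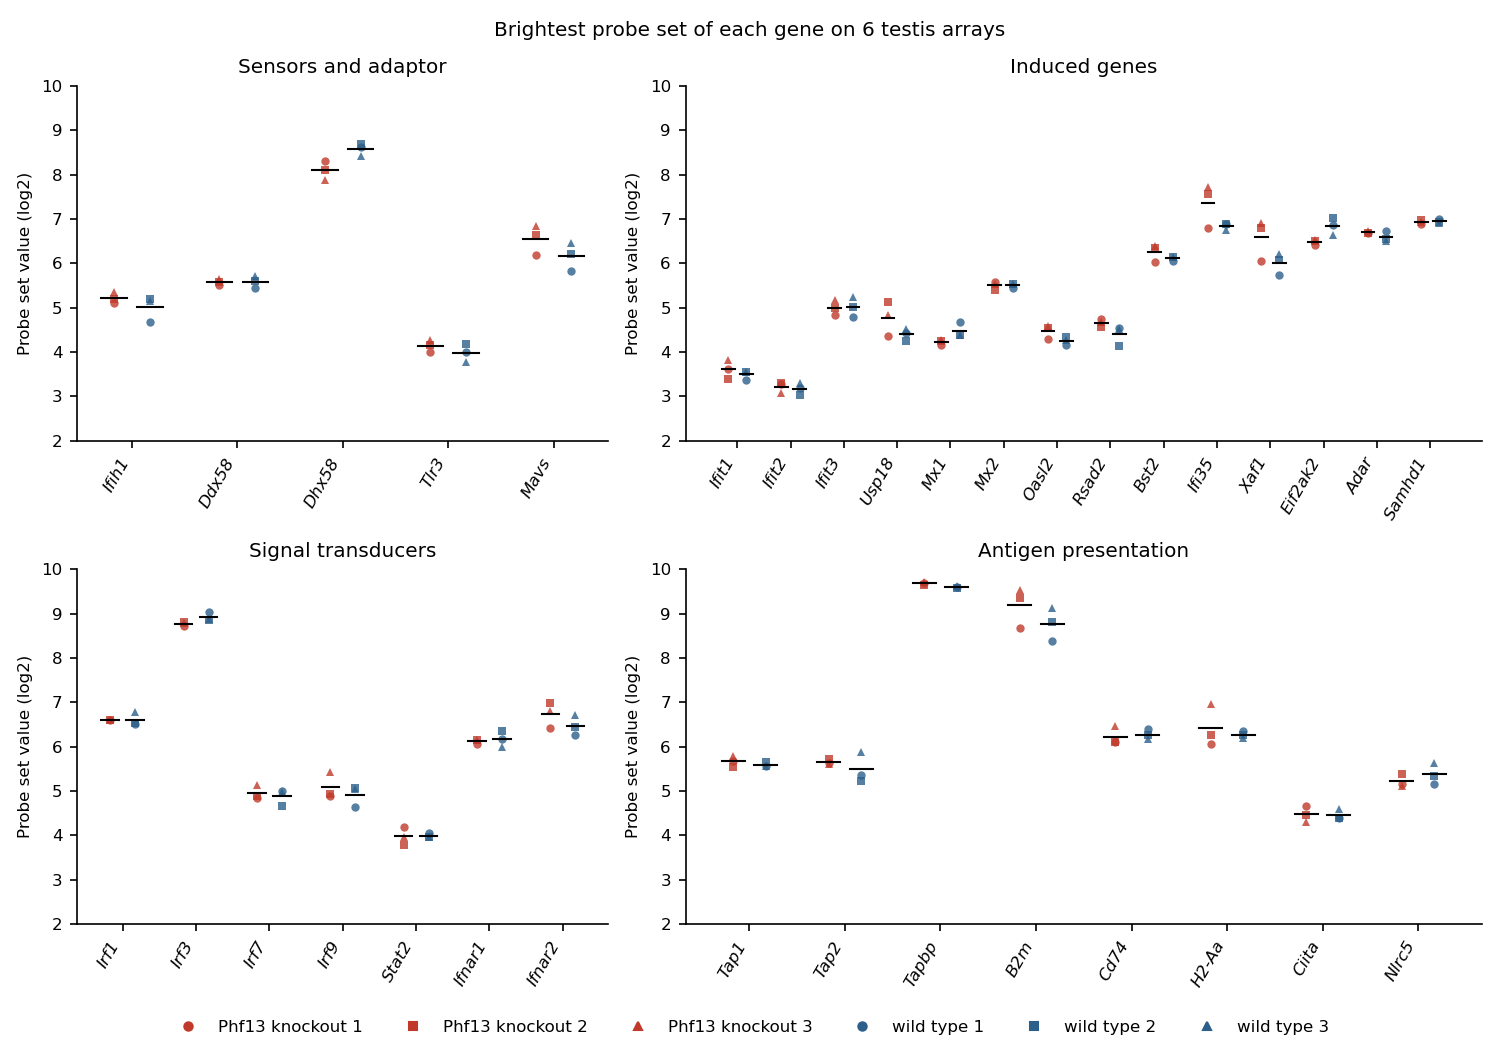
Deposited log2 value (vertical axis) of the brightest probe set of each gene on the 3 Phf13 knockout arrays (red, left of each pair) and the 3 wild-type arrays (blue, right), in 4 panels by role. Symbols mark the replicate number and black bars the group means. The groups do not overlap for Dhx58, Irf3, Mx1, Eif2ak2, Rsad2 and Tapbp. Values of different genes come from different probes and are not comparable as levels.

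Of the 14 induced genes, 10 were above 0 and 4 below, with a median of 0.11. Limma's unadjusted p was under 0.05 for 4 of the 14 (28.6%), 2 in each direction, against 17.3% of all genes. Ifi35, whose product is an interferon-induced leucine zipper protein, was even over its probe sets: all 3 were above 0 and all 3 had an unadjusted p under 0.05 in limma. The brightest read 6.80, 7.56 and 7.72 in knockout, against 6.88, 6.88 and 6.76 in wild type. Knockout 2 and knockout 3 stood above all wild-type arrays and knockout 1 stood among them, so the difference of 0.52 (95% interval 0.03 to 1.01, limma adjusted p = 0.306) split into -0.08 inside the high 18S set and 0.88 inside the low one. Without knockout 1 the difference was 0.80 and passed, with a limma adjusted p of 0.045. In that fit 166 of all 45037 probe sets passed. The second probe set read 6.42, 6.36 and 6.48 in knockout, against 6.06, 5.97 and 5.84 in wild type, a difference of 0.46 (limma adjusted p = 0.154) with no overlap. The third differed by 0.37, also with no overlap. Unlike the brightest, both were above 0 in each set of arrays, the second by 0.41 and 0.58 inside the high and the low 18S set and the third by 0.21 and 0.37. The first and second probe sets are of the type that may match other transcripts.

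Xaf1, which encodes a pro-apoptotic antagonist of XIAP, had the largest difference of the 34 genes. Its brightest probe set read 6.06, 6.79 and 6.92 in knockout, against 5.74, 6.08 and 6.20 in wild type. Here too knockout 2 and knockout 3 were above every wild-type array and knockout 1 was not, with a difference of 0.58 (95% interval 0.07 to 1.09, limma adjusted p = 0.285), 0.15 inside the high 18S set and 0.66 inside the low one. Its other probe set differed by 0.15, with 0.30 inside the high 18S set and 0.06 inside the low one. Usp18, the protease that removes ISG15 from proteins and dampens interferon signalling, read 4.37, 5.12 and 4.84 in knockout, against 4.43, 4.25 and 4.53 in wild type. Its difference was 0.37, with 0.03 inside the high 18S set and 0.45 inside the low one. The macrophage marker mean showed the same order of the knockout arrays as the brightest probe sets of Ifi35 and Xaf1. Knockout 1 was lowest and knockout 3 highest. The mean of all genes, at 6.699, 6.746 and 6.749, had this order too, as did the dendritic, Sertoli and spermatid lists. The B cell, T and NK cell, endothelial, Leydig and spermatocyte lists did not. The macrophage mean differed by -0.14 and 0.37 inside the high and the low 18S set. Its part in the differences of these genes was not tested. The second probe sets of Ifi35 and Xaf1 had knockout 2 lowest of the knockout arrays. The third of Ifi35 had knockout 1 lowest and knockout 3 highest.

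**Figure D3:**
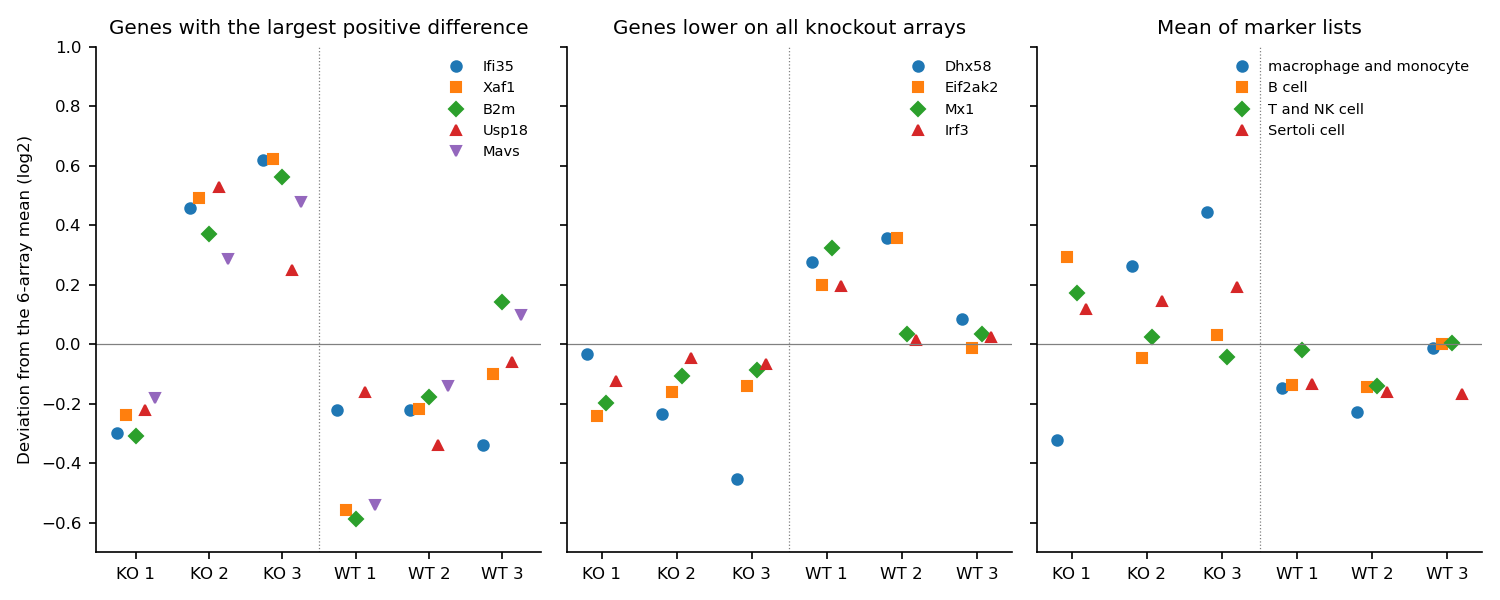
Deviation of each array from the mean of all 6 (log2, vertical axis) for the 5 genes with the largest positive difference, the 4 genes that were lower on every knockout array, and the means of 4 marker lists. Each symbol is 1 array, with knockout (KO) left of wild type (WT); the dotted line parts the genotypes. Ifi35, Xaf1, B2m, Usp18 and Mavs are high on KO 2 and KO 3 and below the mean on KO 1, as is the macrophage and monocyte list.

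Eif2ak2 and Mx1 went the other way. Eif2ak2 encodes PKR, the kinase that halts translation when it binds double-stranded RNA. It read 6.42, 6.50 and 6.52 in knockout, against 6.86, 7.02 and 6.65 in wild type, without overlap and with a difference of -0.36 (95% interval -0.62 to -0.11, limma adjusted p = 0.229). Its dimmer probe sets differed by -0.01 and 0.22. Mx1, which encodes a dynamin-like GTPase against influenza virus, read 4.15, 4.24 and 4.26 in knockout, against 4.67, 4.38 and 4.38 in wild type, a difference of -0.26 (95% interval -0.50 to -0.02) without overlap. Mx2, its cytoplasmic relative in the mouse, read 5.58, 5.40 and 5.54 in knockout, against 5.45, 5.53 and 5.53 in wild type, a difference of 0.00.

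The other induced genes had smaller differences than Ifi35, Xaf1 and Usp18. Ifit1, whose product binds viral RNA that lacks a methyl mark of the host cap, read 3.61, 3.39 and 3.82 in knockout, against 3.37, 3.55 and 3.56 in wild type. Ifit2 read 3.27, 3.30 and 3.08 in knockout, against 3.18, 3.03 and 3.30 in wild type. Ifit3, of the same family of tetratricopeptide repeat proteins, read 4.83, 4.99 and 5.18 in knockout, against 4.78, 5.01 and 5.25 in wild type. The 3 Ifit genes thus differed by 0.11, 0.05 and -0.01, all with overlap, and Ifit1 and Ifit2 were the 2 genes below the lower quartile of all probe sets. Oasl2, an oligoadenylate synthetase-like gene, read 4.29, 4.55 and 4.58 in knockout, against 4.16, 4.35 and 4.26 in wild type, a difference of 0.22. Rsad2, which encodes the antiviral enzyme viperin, read 4.74, 4.57 and 4.68 in knockout, against 4.55, 4.14 and 4.51 in wild type. Its groups did not overlap by a margin of 0.02, its difference was 0.26 (95% interval -0.02 to 0.55), and its dimmer probe sets differed by 0.22 and -0.11. Bst2, which encodes tetherin, a membrane protein that holds budding virus, read 6.03, 6.34 and 6.39 in knockout, against 6.05, 6.14 and 6.15 in wild type. Its difference was 0.14, and knockout 1 was the lowest of the 6 arrays.

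Adar and Samhd1, which encode the RNA editing enzyme that marks the cell's own double-stranded RNA and the enzyme that breaks down deoxynucleotides, varied little between arrays. Adar read 6.68, 6.68 and 6.74 in knockout, against 6.73, 6.56 and 6.51 in wild type, a difference of 0.10 (95% interval -0.11 to 0.31). Samhd1 read 6.88, 6.97 and 6.93 in knockout, against 7.0, 6.93 and 6.92 in wild type, a difference of -0.02 (95% interval -0.21 to 0.17). Their other probe sets lay on both sides of 0, from -0.33 to 0.14 for Adar and from -0.20 to 0.19 for Samhd1. Of the 19 genes with several probe sets, 10 had all of them on one side of 0 and 9 did not.

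Antigen presentation genes held no gene with an unadjusted p under 0.05; 6 of 8 were above 0 and the median was 0.08. B2m encodes beta-2 microglobulin, the light chain of every class I molecule. It read 8.67, 9.35 and 9.54 in knockout, against 8.39, 8.80 and 9.12 in wild type, and its second probe set read 8.62, 9.23 and 9.37 in knockout, against 8.14, 8.70 and 9.11 in wild type. Both probe sets put the arrays in the same order. Both genotypes spread widely, with knockout 3 highest and wild type 1 lowest, so the difference of 0.42 had a 95% interval from -0.15 to 0.98; it was 0.08 inside the high 18S set and 0.32 inside the low one.

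The genes that load class I overlapped, except Tapbp. Tap1 read 5.68, 5.54 and 5.78 in knockout, against 5.57, 5.65 and 5.56 in wild type, and Tap2, the other subunit of the peptide transporter, read 5.63, 5.72 and 5.61 in knockout, against 5.36, 5.22 and 5.87 in wild type. Tap1 and Tap2 had differences of 0.07 and 0.17. The dimmer probe sets of Tap1 disagreed, at -0.07, 0.20 and -0.15. Tapbp, which encodes tapasin and joins the transporter to class I, read 9.70, 9.64 and 9.72 in knockout, against 9.61, 9.58 and 9.63 in wild type. Its groups did not overlap, by a margin of 0.01, with a difference of 0.08, and its dimmer probe set differed by -0.17. Nlrc5, the activator of class I genes, read 5.16, 5.37 and 5.11 in knockout, against 5.15, 5.33 and 5.63 in wild type, a difference of -0.16 with overlap.

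For class II, Cd74, the invariant chain, read 6.11, 6.11 and 6.46 in knockout, against 6.39, 6.25 and 6.16 in wild type, a difference of -0.04. H2-Aa, which encodes the alpha chain of I-A, read 6.06, 6.25 and 6.95 in knockout, against 6.34, 6.26 and 6.19 in wild type. In both genes knockout 3 alone stood above the wild-type arrays. The difference of H2-Aa was 0.16 (95% interval -0.31 to 0.63), -0.24 inside the high 18S set and 0.41 inside the low one, and all 4 of its probe sets were above 0, by up to 0.16. Ciita, the activator of class II genes, read 4.67, 4.45 and 4.30 in knockout, against 4.38, 4.39 and 4.59 in wild type. Its difference was 0.02 and its other probe sets differed by 0.14 and 0.10.

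Knockout 3 and wild type 1 were at the ends of the range more often for these genes than over all genes, which was not tested. Knockout 3 was the highest array for 16 of the 34 genes (47.1%), against 20.6% of all genes, and wild type 1 was the lowest for 11 (32.4%), against 18.9%. Knockout 2 was highest for 2. The mean of the 34 genes was 5.77, 5.90 and 5.99 in knockout, against 5.74, 5.80 and 5.86 in wild type, so knockout 1 lay below wild type 2 and wild type 3. Inside the high 18S set the median difference of the 34 genes was 0.04, and inside the low set 0.07, beside -0.01 and -0.02 over all genes. The sign was the same in both sets for 21 of the 34, 14 above 0 and 7 below. Dhx58, Eif2ak2 and Mx1 were below 0 in both, which follows from the lack of overlap between their groups. The brightest probe set of Ifi35 was above 0 only in the low set. These values are for the brightest probe set of each gene.

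**Figure D4:**
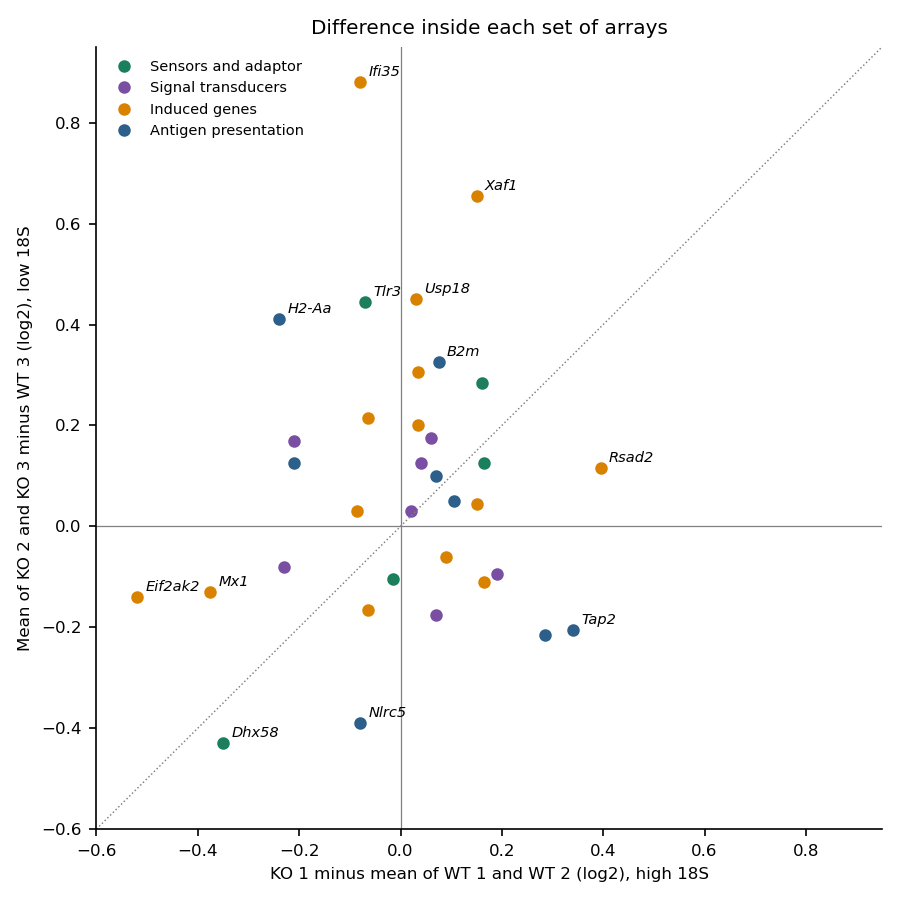
Difference of each gene inside the set of arrays with high 18S control values (knockout 1 minus the mean of wild type 1 and wild type 2, log2, horizontal axis) and inside the set with low values (mean of knockout 2 and knockout 3 minus wild type 3, log2, vertical axis). Each point is 1 gene, coloured by role, and the dotted line marks equal differences. Ifi35 stands at -0.08 and 0.88, and Dhx58 at -0.35 and -0.43.

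Other genes of the same pathways were set beside these 34. Of 80 listed, 70 were measured, and 0 passed over all probe sets in limma. Before adjustment, limma's p was under 0.05 for 10 on the higher and 2 on the lower side, 17.1% of the 70 against 17.3% of all genes, and 58 of 70 (82.9%) were above 0, against 51.3% of all genes, with a median of 0.10. Among 21 other signalling genes, Myd88, the adaptor of most Toll-like receptors, read 7.38, 7.33 and 7.22 in knockout, against 7.66, 7.68 and 7.63 in wild type. Its difference was -0.35 (95% interval -0.54 to -0.15, limma adjusted p = 0.197), without overlap. Lack of overlap fixes the sign inside both 18S sets, where the differences were -0.29 and -0.36. The interferon regulatory factor gene Irf2 differed by -0.23. Cgas, which encodes a sensor of cytosolic DNA, differed by 0.23, and Ticam1, which encodes the adaptor of TLR3, by 0.18. Both were higher on every knockout array than on every wild-type array. In all, 4 of the 21 signalling genes (19.0%) did not overlap, against 23.5% of all genes. Limma's unadjusted p was under 0.05 for 3 of the 21 (14.3%), against 17.3% of all genes.

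The 28 other induced genes had 26 above 0, 8 of which (28.6% of the 28) had a limma p under 0.05 before adjustment, against 8.58% of all genes on the higher side. In 7 of the 28 (25%) the knockout arrays all lay above the wild-type arrays, against 9.92% of all genes. Those with the smallest p were Ifi202b (difference 0.26), Ifitm3, which encodes a membrane protein that blocks virus entry (0.59), Iigp1, an immunity-related GTPase gene (0.30), and Apobec3, which encodes a cytidine deaminase against retroviruses (0.32). Ifitm3 read 7.95, 8.39 and 8.93 in knockout, against 7.73, 7.89 and 7.89 in wild type. Their limma adjusted p ran from 0.265 to 0.273. The median of the 28 was 0.13 inside each set of arrays.

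Of 21 other antigen presentation genes, 17 were above 0, with a median of 0.10. The class I heavy chain gene H2-D1 read 8.09, 8.83 and 8.93 in knockout, against 7.89, 8.12 and 8.10 in wild type, a difference of 0.58 (95% interval 0.11 to 1.05, limma adjusted p = 0.263). Knockout 1 again lay among the wild-type arrays, and the difference was 0.09 inside the high 18S set and 0.78 inside the low one. Psme1, a subunit gene of the proteasome activator PA28, also had knockout 1 among the wild-type arrays, with 7.86, 8.48 and 8.50 in knockout, against 7.84, 7.91 and 7.95 in wild type. H2-M3 differed by 0.21 and Rfxank, which encodes a part of the complex that binds class II promoters, by -0.22, both without overlap. In all, 3 of the 21 (14.3%) did not overlap, against 23.5% of all genes. Limma's unadjusted p was under 0.05 for 1 of the 21 (4.8%), against 17.3% of all genes.

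Leukocyte markers were measured because these cells carry much of the class II machinery. All 14 macrophage and monocyte markers were above 0, with a median of 0.24 and 1, Itgam at 0.23, at an unadjusted p under 0.05. The pan-leukocyte gene Ptprc read 4.23, 4.83 and 5.12 in knockout, against 4.46, 4.30 and 4.11 in wild type, and Csf1r, the receptor for macrophage growth factor, read 7.62, 8.24 and 8.31 in knockout, against 7.74, 7.59 and 7.78 in wild type. Both lay among the wild-type arrays on knockout 1 and above all of them on knockout 2 and knockout 3. The macrophage gene Adgre1 read 5.15, 6.03 and 5.99 in knockout, against 5.72, 5.60 and 5.71 in wild type, so that knockout 2 and knockout 3 were again above all wild-type arrays and a low knockout 1 left a difference of 0.05. The 4 B cell markers, the 6 T and NK cell markers and the 4 dendritic cell markers had medians of 0.11, 0.10 and 0.02; Cd3g differed by 0.22, the B cell gene Ms4a1 by 0.44 and Flt3 by -0.33. None of the 28 leukocyte markers passed over all probe sets in limma, and 2 (7.1%), both higher, had an unadjusted p under 0.05, against 17.3% of all genes. Both were dim, below the lower quartile of 3.70. Itgam averaged 2.89 in knockout and 2.65 in wild type, and Ms4a1 averaged 3.65 in knockout and 3.20 in wild type. Endothelial markers had a median of 0.17, with Cdh5 at 0.28 and Vwf at -0.41. The 4 measured Leydig cell markers were all above 0, with a median of 0.38, the largest median of the marker lists. Of the 4, 2 (50%), Hsd3b1 at 0.56 and Star at 0.49, had an unadjusted p under 0.05, against 17.3% of all genes, 8.58% higher. The mean of the 4 was 9.33, 9.75 and 9.70 in knockout, against 9.02, 9.36 and 9.26 in wild type, with 0.14 inside the high 18S set and 0.47 inside the low one. The mean of 9 Sertoli markers was 8.55 ± 0.04 in knockout and 8.25 ± 0.02 in wild type (SD, n = 3 each), and it was above the wild-type arrays on all 3 knockout arrays, unlike the mean of the 34 genes. Of the 9, 8 were above 0, with a median of 0.36. An unadjusted p under 0.05 was found for 5 (55.6%), all higher, and the smallest were for Cst12 at 0.58 and Inhbb at 0.41. In 6 (66.7%) the knockout arrays all lay above the wild-type arrays, against 9.92% of all genes. Whether these shifts in cell markers have a part in the differences of the interferon genes was not tested.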

How the data were processed

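Total RNA of whole testis was measured on 6 Affymetrix arrays. Per the submitters' processing notes, the authors used Affymetrix Expression Console 1.4.1 to make the deposited log2 values, 1 for each probe set. The summarization, normalization and genome build were not given in the sources used here. That the scale is log2 was judged from the range, 1.42 to 14.01. No array repeated another (smallest root mean square difference 0.17), and the number of arrays limits the precision.

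After 64 control probe sets were left out, all 45037 were fitted with no filter in R 4.3.3 with limma 3.58.1 (lmFit and eBayes on genotype, two-sided, Benjamini-Hochberg adjustment, threshold 0.05). Every adjusted p is from that fit, over all probe sets. Genes were named from the platform annotation, from probe sets with 1 symbol (34945 of them; 932 had several and 9160 none). The probe set with the highest mean stood for a gene. The genes, their roles, the other lists and the 18S sets were chosen with earlier results of these data known, as were the letters of the promoter cores, one of them after a longer form had been searched, so no list was tested as a whole: lists are given by counts and medians beside those of all genes. The naming rule took every listed gene, the 4 genes with the smallest p of each other pathway list, and 2 of each marker list with Ptprc, Csf1r, Adgre1 and Cd3g. Of the marker genes it took, the values of Itgax, Pax5, Cd3d, Prm2 and Acrv1 are not printed.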

Additional observations from a re-analysis of the deposited data

How the results depend on the processing

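Alternatives changed 1 choice at a time. Wild type 1 is alone in its title code run, so that block takes it out of the comparison. The title code runs split the high 18S set further, so these blocks overlap and are not separate checks. No probe set of the 34 genes passed with the replicate number, the title code runs or the 18S sets as a block, among probe sets above the median level, after quantile normalization or median centring, with an intensity trend, with an unmoderated statistic, or at an adjusted p under 0.1. With array weights 8 passed, 3 of Ifi35 and 1 each of Dhx58, Irf3, Usp18, Xaf1 and Eif2ak2, where 3186 of all probe sets passed. Leaving out 1 array gave 0 to 1 (Ifi35 without knockout 1, Irf3 without wild type 3). Over all probe sets, 45 passed in the main fit, 28 with the replicate block, 16 with title code runs, 79 above the median level, 110 with the trend, 100 at an adjusted p under 0.1, 1 unmoderated, and 12 to 1176 without 1 array (1176 without wild type 3, 166 without knockout 1). Same-numbered arrays deviated together with correlations of 0.26, 0.07 and 0.12, so the numbers were not taken to pair the arrays.

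The median of the sensors, 0.17, was 0.033 with title code runs, -0.01 for the 3 sensors above the median level, and 0.047 to 0.27 without 1 array; that of the transducers, -0.01, was -0.025 to 0.085 without 1 array. The median of all 34 genes, 0.08, was 0.012 without knockout 3, near that of all genes, and 0.11 without knockout 2; that of the induced genes, 0.11, ran from 0.064 to 0.13, and that of the antigen presentation genes, 0.08, from 0.039 to 0.12, all within the spread between arrays. Of the 34 genes, 19 kept their sign in every alternative, Dhx58, Eif2ak2, Mx1, Ifi35, Xaf1 and B2m among them. For Dhx58, Eif2ak2 and Mx1, whose groups did not overlap, leaving out 1 array could not change the sign. A count of member probe sets at an unadjusted p under 0.05, added after seeing the data, ran from 2 to 19 higher and from 3 to 8 lower. The same count over all probe sets was not made under the alternatives, so this range is not a result about these genes. The causes of these shifts were not tested. Low values carry no background level, which limits what the dimmest genes can show.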
